A study of Homo sapiens with 6 samples.

Results

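The mitochondrial protein import machinery was followed here through 33 genes, which encode subunits and partners of the TOM, SAM, TIM22 and TIM23 complexes, the presequence translocase-associated motor (PAM), the MIA pathway and the small TIM chaperones. The genes were chosen by symbol and traced through their Ensembl identifiers in a table of 61661 identifiers, where all 33 were found. Of these, 32 held enough reads to be tested among 17686 genes, and TOMM6 held 0 reads in every library. RNA-seq had been performed on K562, an established cell line from a chronic myeloid leukemia in blast phase, in 6 libraries: 2 from shCTR cells, 2 from shMETTL3 cells and 2 from shMETTL14 cells. METTL3 and METTL14 form the core of the enzyme that writes N6-methyladenosine (m6A) into mRNA. The shCTR cells, labelled as wild type, and the shMETTL3 cells were stable lines made with a lentiviral vector that expresses a short hairpin RNA (shRNA) from a U6 promoter together with GFP and a puromycin resistance gene, the control virus carrying a nonsense insert. How the shMETTL14 line, labelled as a METTL14 knockdown, was made is not given in the sources used here. All cells were collected in logarithmic growth without further treatment, and polyadenylated RNA was sequenced. Each condition is 1 line, and nothing states that its 2 libraries came from separate cultures, so p-values measure only the spread between these libraries, which may be technical.

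Nearly all mitochondrial proteins are made in the cytosol and imported after translation. Precursors are recognised by receptors of the translocase of the outer membrane (TOM) and pass its pore. From there they follow separate routes: the sorting and assembly machinery (SAM) builds beta-barrel proteins into the outer membrane, the MIA pathway traps cysteine-rich proteins in the intermembrane space by oxidation, the small TIM chaperones carry hydrophobic precursors to TIM22, which inserts carriers into the inner membrane, and TIM23 passes presequence proteins to the matrix, where the PAM motor pulls them in with ATP. Red cell precursors, the lineage K562 resembles, rely on this machinery for the mitochondrial enzymes of heme synthesis.

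Promoter sequences of 30 of the 33 genes were found in a RefSeq table (build GRCh38.p14), each covering 250 bases before and 50 after the start of the gene. TOMM5, TIMM8B and GRPEL1 had no entry. They are shown because a pair of activators linked to nuclear genes for mitochondria, NRF1 and the ETS family factor GABP, have short recognition motifs that can be read in them. GCGCNTGCG (NRF1), CCGGAAG (ETS family) and AAGATGGC (YY1) were searched on both strands. The NRF1 letters were in the window of 10 of the 30 genes, against 7.47% of all 35116 promoters, the ETS letters in 12 of 30 against 10.3%, and the YY1 letters in 2 of 30 (TOMM40L and TIMM50) against 2.89%. Below are 120 bases, 100 before and 20 from the start, for the 7 genes whose level passed the test in at least 1 comparison and that had an entry, with the motifs in capitals and overlapping in none of them. In TOMM34, the NRF1 and ETS letters lay 1 base apart, beginning 14 and 4 bases before the start. HSPA9 held none of the searched motifs, and TOMM7 and GRPEL2 held further copies outside the bases shown.
TOMM20 (chr1:235128818-235128937, minus strand): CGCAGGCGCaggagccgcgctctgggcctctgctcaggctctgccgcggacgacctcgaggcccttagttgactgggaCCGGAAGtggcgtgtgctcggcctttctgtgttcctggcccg
TOMM22 (chr22:38681857-38681976, plus strand): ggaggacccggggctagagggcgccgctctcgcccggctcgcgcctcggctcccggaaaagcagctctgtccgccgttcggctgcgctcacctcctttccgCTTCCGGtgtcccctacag
TOMM7 (chr7:22822830-22822949, minus strand): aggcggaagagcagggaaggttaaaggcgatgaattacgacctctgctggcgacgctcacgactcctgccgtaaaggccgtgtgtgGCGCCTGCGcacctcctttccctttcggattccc
TOMM34 (chr20:44960378-44960497, minus strand): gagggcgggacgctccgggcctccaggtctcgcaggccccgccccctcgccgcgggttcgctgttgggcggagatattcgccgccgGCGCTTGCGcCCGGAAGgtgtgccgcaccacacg
TIMM23 (chr10:45972389-45972508, plus strand): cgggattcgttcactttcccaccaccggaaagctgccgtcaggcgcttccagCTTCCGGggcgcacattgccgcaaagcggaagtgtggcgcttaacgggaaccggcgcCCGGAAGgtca
GRPEL2 (chr5:149345399-149345518, plus strand): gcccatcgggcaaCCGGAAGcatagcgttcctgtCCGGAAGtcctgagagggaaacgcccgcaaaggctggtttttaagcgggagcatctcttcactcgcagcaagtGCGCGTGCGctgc
HSPA9 (chr5:138575382-138575501, minus strand): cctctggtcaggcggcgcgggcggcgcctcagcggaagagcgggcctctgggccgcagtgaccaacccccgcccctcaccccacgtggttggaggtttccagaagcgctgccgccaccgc

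Library totals ran from 19292574 to 20115304 reads, and levels are given as CPM, the usual per-library scale of RNA-seq in which a gene's reads are divided by the size of its library, with sizes adjusted by edgeR's TMM factors, which lay between 0.980 and 1.02. METTL3 was at 90.5 and 90.3 CPM in shCTR, at 52.5 and 46.7 CPM in shMETTL3 and at 88.1 and 76.4 CPM in shMETTL14, and METTL14 was at 33.2 and 34.2 CPM in shCTR, 38.3 and 35.4 CPM in shMETTL3 and 19.1 and 20.6 CPM in shMETTL14, so each targeted mRNA was lower in the libraries labelled for it. All 10 K562 marker genes were above 3 reads in every library, their sum between 1880 and 2120 CPM, whereas CD14, CSF1R, CD3E, MS4A1 and KRT5, which mark other cell types, stayed at or under 3 reads. The summed K562 markers were at 2100 to 2120 CPM in shMETTL3 and at 1880 to 1910 CPM in the other groups, and 4 epithelial and stromal markers summed to 56.7 to 57.8 CPM in shCTR, 42.3 to 43.2 CPM in shMETTL3 and 44.5 to 45.4 CPM in shMETTL14, nearly all of it EPCAM. Their part in the results was not tested. No library was a copy of its replicate: their counts differed beyond sampling noise, most between the shCTR libraries (mean chi-square 5.03 per gene, against 2.90 and 2.45 for shMETTL3 and shMETTL14).

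With METTL3 knockdown, 4 of 32 import genes fell and 0 rose (12.5% called, beside 16.5% of all genes). Where libraries were scaled by size alone, 3 fell and 3 rose. The 4 genes encode proteins of the outer membrane translocase or its cytosolic side. TOMM5 and TOMM7, the small subunits that stabilise the TOM complex, were at 0.664 and 0.817 of the shCTR level, TOMM34, a cytosolic cochaperone, at 0.791, and TOMM22, the central receptor, at 0.869. With METTL14 knockdown, 3 of 32 fell and 0 rose (9.38% called, beside 6.69% of all genes). HSPA9, the motor chaperone of the matrix, was at 0.846, its nucleotide exchange factor GRPEL2 at 0.849, and the presequence receptor TOMM20 at 0.873. No gene was called in both, but TOMM20 and TOMM22 had negative fold changes in both and were not called between the knockdowns. Between the knockdowns themselves, 6 of 32 were called (18.8%, beside 12.1% of all genes). TOMM5, TOMM7, TOMM34 and TIMM23 were lower in shMETTL3, and HSPA9 and GRPEL2 were higher. In bulk RNA, fewer cells carrying a transcript and less of it per cell cannot be told apart.

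The counts are read against the share of all genes called. The 4 of 32 genes called between shMETTL3 and shCTR by edgeR's quasi-likelihood test (Benjamini-Hochberg adjusted p under 0.05 over all genes tested) were 12.5%, where 16.5% of all 17686 genes were called, 8.73% higher and 7.73% lower. The 3 called between shMETTL14 and shCTR were 9.38% of the 32, beside 6.69% of all genes, 3.43% higher and 3.26% lower. Between the knockdowns, 6 of 32 (18.8%) were called, beside 12.1% of all genes, 6.65% of all genes being higher in shMETTL3 and 5.49% lower. The median log2 fold change over the 32 genes was 0.001, -0.024 and 0.033 in the order of these comparisons, beside 0.003, -0.000 and -0.002 over all genes. At an unadjusted p under 0.05 stood 10, 7 and 10 of the 32. The share of all genes at that level is not given here, so these counts cannot be read as an excess. Of the genes that were not called, the 95% interval of the change stayed within 1.5-fold in either direction for 27 of 28, 29 of 29 and 26 of 26, so changes larger than that were outside the interval for nearly every one of them. The libraries of the groups compared did not overlap for 21, 15 and 23 of the 32 genes, beside 56.0%, 48.9% and 56.7% of all genes. The shCTR libraries serve both knockdown comparisons, which are therefore not independent.

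**Figure D1:**
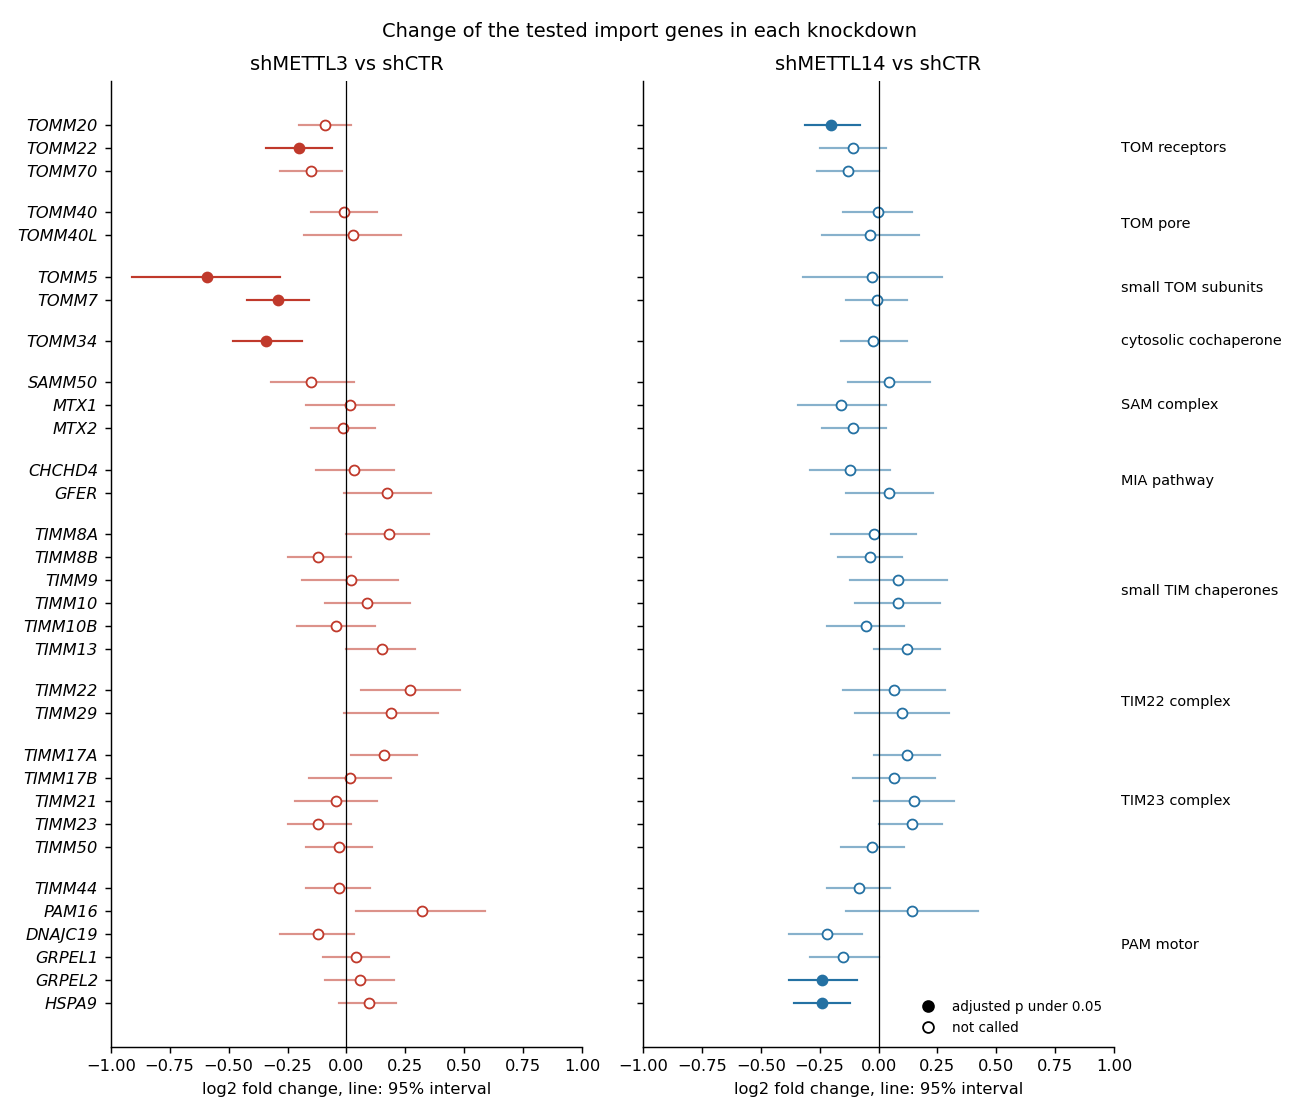
Log2 fold change (horizontal axis) of the 32 tested import genes against shCTR, in shMETTL3 on the left and shMETTL14 on the right, with lines for the 95% interval and filled points for genes with an adjusted p under 0.05, grouped by role. The filled points on the left belong to TOMM22, TOMM5, TOMM7 and TOMM34 and those on the right to TOMM20, GRPEL2 and HSPA9, all of them below 0.

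The number of calls depended on single libraries, for the import genes and also for the other mitochondrial lists. The share of all genes called in each fit that leaves out a library is not given here. The moves therefore cannot be read as particular to the import genes. Without shCTR replicate 2, 8 import genes were called in shMETTL3, 3 higher and 5 lower, and 6 in shMETTL14, 2 higher and 4 lower, so the calls no longer lay on 1 side. Without either shMETTL3 library only 1 was called in shMETTL3. In shMETTL14, 0 remained called without shCTR replicate 1 or without shMETTL14 replicate 2, and 1 without any one of the other 3 knockdown libraries. Between the knockdowns, the count fell to 3 without shMETTL3 replicate 1, to 1 without shMETTL3 replicate 2 and to 2 without shMETTL14 replicate 1. No call of an import gene changed its direction in any of these fits.

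The 3 TOM receptors, which bind precursors at the mitochondrial surface, all had a negative log2 fold change in both knockdowns, and 1 passed the test in each. TOMM20 (ENSG00000173726; chromosome 1, 235109336 to 235128936, minus strand, GRCh38), the receptor for presequences, was at 716 and 704 CPM in shCTR, 669 and 665 CPM in shMETTL3 and 604 and 635 CPM in shMETTL14. The shMETTL14 libraries were the lowest and the groups did not overlap. Its log2 fold change in shMETTL14 was -0.20 (standard error 0.0541, adjusted p = 0.0334), and in shMETTL3 it was -0.091 (adjusted p = 0.275). The call in shMETTL14 held only without shCTR replicate 2, the adjusted p rising to between 0.0603 without shCTR replicate 1 and 0.319 without shMETTL14 replicate 1 when another library was left out. It was also lost with library size alone (0.0651) and with only the compared groups in the fit (0.0805).

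TOMM22 (ENSG00000100216; chromosome 22, 38681948 to 38685421, plus strand), the receptor that also joins the pores into one complex, was at 61.1 and 60.1 CPM in shCTR, 51.9 and 53.4 CPM in shMETTL3 and 55.4 and 56.9 CPM in shMETTL14. Both knockdown groups lay below both control libraries. The log2 fold change in shMETTL3 was -0.20 (standard error 0.0678, adjusted p = 0.0468), and this call was lost when any library except shCTR replicate 2 was left out (adjusted p up to 0.248) and in 5 of 8 other settings: DESeq2 (0.116), library size alone (0.149), no filter (0.0985), only the compared groups (0.0838) and the GC and length trend removed (0.0614). In shMETTL14 the log2 fold change was -0.11 (adjusted p = 0.388). TOMM70, the receptor that takes carrier precursors from cytosolic chaperones, was at 159 and 151 CPM in shCTR and between 140 and 142 CPM in all 4 knockdown libraries. Its log2 fold changes were -0.15 in shMETTL3 (adjusted p = 0.110) and -0.13 in shMETTL14 (adjusted p = 0.225), neither past the threshold, although the first reached an adjusted p of 0.0325 without shCTR replicate 2.

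No change of the pore was detected. TOMM40, the beta-barrel channel of TOM, was at 134 and 150 CPM in shCTR and between 137 and 146 CPM in the 4 knockdown libraries. Its log2 fold change was -0.011 in shMETTL3 (95% interval -0.15 to 0.13) and -0.004 in shMETTL14 (-0.15 to 0.14). Its paralog TOMM40L ran from 19.2 to 21.6 CPM over the 6 libraries, with 95% intervals of -0.18 to 0.23 and -0.24 to 0.17. Reads of TOMM40 may be shared with its pseudogenes TOMM40P1, TOMM40P2 and TOMM40P4, which held between 36 and 98 reads in a library.

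Both measurable small TOM subunits fell with METTL3 knockdown. TOMM7 (ENSG00000196683; chromosome 7, 22812628 to 22822852, minus strand), which regulates the assembly of TOM and helps to keep the kinase PINK1 at the surface of damaged mitochondria, was at 169 and 164 CPM in shCTR, 134 and 137 CPM in shMETTL3 and 159 and 171 CPM in shMETTL14. Both shMETTL3 libraries lay below all 4 others. The log2 fold change was -0.29 in shMETTL3 (standard error 0.0627, adjusted p = 0.0032), -0.0082 in shMETTL14 (adjusted p = 0.960) and -0.28 between the knockdowns (standard error 0.0627, adjusted p = 0.00442). Without shMETTL3 replicate 1 the first of these had an adjusted p of 0.0548, and the difference between the knockdowns was lost without shMETTL3 replicate 1 (0.0777), shMETTL3 replicate 2 (0.0505) or shMETTL14 replicate 2 (0.129). With the trend of each library on transcript GC content and length removed, the fold change in shMETTL3 was the smallest, at -0.17, and was still called.

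TOMM5 (ENSG00000175768; chromosome 9, 37582646 to 37592642, minus strand), which supports the TOM complex, had the largest fold change of the 32 genes in shMETTL3 and also few reads, between 116 and 189 in a library. It was at 8.55 and 9.45 CPM in shCTR, 6.16 and 5.78 CPM in shMETTL3 and 9.62 and 8.06 CPM in shMETTL14. The shMETTL3 libraries were the lowest and did not overlap with the others. The change on the log2 scale was -0.59 in shMETTL3 (standard error 0.150, adjusted p = 0.0103), -0.026 in shMETTL14 (adjusted p = 0.945) and -0.57 between the knockdowns (standard error 0.150, adjusted p = 0.0163). The first was not called without shMETTL3 replicate 1 (adjusted p = 0.0517) or replicate 2 (0.113), and the last was not called without either of them (0.0761 and 0.157), without shMETTL14 replicate 1 (0.222) or with DESeq2 (0.0787). Exons of 2 other genes on the same strand cover 18.7% of its exonic bases, and these genes held at most 9 reads in a library. How reads on the shared bases were counted is not stated, so TOMM5 may have lost reads there.

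TOMM6, the remaining small subunit, could not be followed. Its count was 0 in all 6 libraries. All 637 of its exonic bases lie in exons of another gene on the same strand, ENSG00000124593, which held 160 and 138 reads in shCTR, 128 and 125 in shMETTL3 and 198 and 149 in shMETTL14. The count of 0 therefore says nothing of the presence of TOMM6 mRNA.

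TOMM34 (ENSG00000025772; chromosome 20, 44942130 to 44960486, minus strand), a cytosolic cochaperone that links HSP70 and HSP90 to precursor proteins, had the smallest adjusted p of the 32 genes in shMETTL3. Its levels were 66.0 and 66.7 CPM in shCTR, 53.8 and 51.2 CPM in shMETTL3 and 66.9 and 63.8 CPM in shMETTL14. Both shMETTL3 libraries were below the lowest of the other 4, and shMETTL14 overlapped with shCTR. The log2 fold change was -0.34 in shMETTL3 (standard error 0.0684, adjusted p = 0.00203), -0.022 in shMETTL14 (adjusted p = 0.897) and -0.32 between the knockdowns (standard error 0.0684, adjusted p = 0.00378). Without shMETTL3 replicate 2, the adjusted p was 0.0621 for the first and 0.0978 for the last, which was also lost without shMETTL14 replicate 1 (0.0906). All 8 other settings called it in both comparisons.

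**Figure D2:**
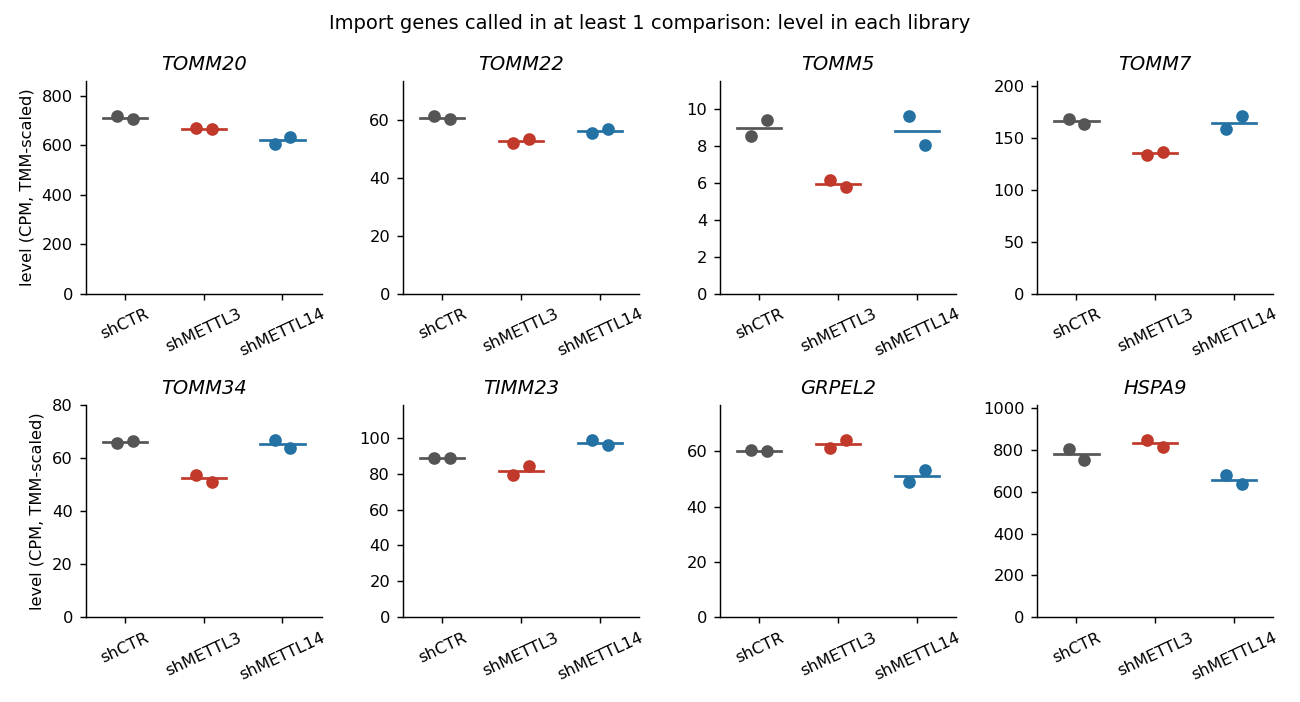
Level in CPM (vertical axis, from 0) of the 8 import genes called in at least 1 comparison, with a point for each library and a bar for the mean of the 2 libraries of a group. TOMM5, TOMM7 and TOMM34 are lowest in shMETTL3, whereas TOMM20, GRPEL2 and HSPA9 are lowest in shMETTL14.

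The SAM complex, which folds beta-barrel proteins such as TOMM40 into the outer membrane, had no member past the threshold in the 3 comparisons. SAMM50, its barrel, was at 39.8 and 44.8 CPM in shCTR, 39.5 and 36.9 CPM in shMETTL3 and 46.4 and 40.9 CPM in shMETTL14, with log2 fold changes of -0.15 (adjusted p = 0.263) and 0.046 (adjusted p = 0.811). MTX1 and MTX2, its cytosolic caps, ran from 23.4 to 28.4 CPM and from 90.0 to 99.8 CPM. The largest of their log2 fold changes against shCTR was -0.16 for MTX1 in shMETTL14 (adjusted p = 0.331). Exons of genes on the opposite strand cover 21.9% of the exonic bases of MTX1, and a pseudogene, MTX1P1, held between 31 and 69 reads.

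Neither gene of the MIA pathway was called. CHCHD4, the oxidoreductase that forms disulfide bonds in incoming proteins, was at 33.9 and 34.4 CPM in shCTR, 34.8 and 35.0 CPM in shMETTL3 and 30.8 and 32.0 CPM in shMETTL14. GFER, the sulfhydryl oxidase that recharges CHCHD4, differed as much between the shCTR libraries, at 38.0 and 46.1 CPM, as between groups, with 45.9 and 48.9 CPM in shMETTL3 and 45.0 and 41.8 CPM in shMETTL14. Its log2 fold change in shMETTL3 was 0.17 (adjusted p = 0.186), and it moved to 0.32 (adjusted p = 0.0114) without shCTR replicate 2 and to 0.04 without shCTR replicate 1.

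Of the 6 small TIM chaperones, which escort hydrophobic precursors through the intermembrane space in rings of TIMM9 with TIMM10 or TIMM8A with TIMM13, 0 of 6 were called in each comparison. At an unadjusted p under 0.05 stood 2 of them in shMETTL3, 0 in shMETTL14 and 1 between the knockdowns, with no share of all genes at that level to set beside them. TIMM8A, the gene mutated in deafness-dystonia syndrome, was at 29.2 and 28.5 CPM in shCTR, 33.8 and 31.5 CPM in shMETTL3 and 28.5 and 28.4 CPM in shMETTL14, with a log2 fold change of 0.18 in shMETTL3 (adjusted p = 0.156). With the GC and length trend removed, that change was 0.24 (adjusted p = 0.0245). Its ring partner TIMM13 was at 101 and 114 CPM in shCTR and between 116 and 121 CPM in the knockdown libraries, with log2 fold changes of 0.15 (adjusted p = 0.152) and 0.12 (adjusted p = 0.331). For TIMM13 in shMETTL3, the log2 fold change was 0.24 without shCTR replicate 2 (adjusted p = 0.0140), 0.06 without shCTR replicate 1, 0.20 with library size alone (0.0469) and 0.01 with the GC and length trend removed, and in shMETTL14 it was 0.21 without shCTR replicate 2 (0.0411). TIMM8B, TIMM9, TIMM10 and TIMM10B had log2 fold changes between -0.12 and 0.089 in both knockdowns. Opposite-strand exons cover 32.3% of the exonic bases of TIMM8B, 30.5% of TIMM9 and 25.9% of GFER. Of TIMM13, 28.9% is covered by exons of other genes, 13.0% by those of LMNB2 on the same strand and the rest by TMPRSS9 on the opposite strand. Without a stated strand setting, reads of opposite-strand pairs cannot be told apart.

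TIM22, the carrier translocase, had the largest positive changes of a whole group in shMETTL3, though not past the threshold. TIMM22, its channel, was at 19.1 and 19.2 CPM in shCTR, 22.8 and 23.3 CPM in shMETTL3 and 18.3 and 21.8 CPM in shMETTL14. The log2 fold change in shMETTL3 was 0.27 (standard error 0.102, adjusted p = 0.0781), and scaling by library size alone put it at 0.32 (adjusted p = 0.0340). TIMM29, a stabilising subunit, was at 19.7 and 21.6 CPM in shCTR, 23.9 and 23.2 CPM in shMETTL3 and 22.6 and 21.6 CPM in shMETTL14 (log2 fold change 0.19 in shMETTL3, adjusted p = 0.187).

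In the TIM23 complex, the difference that passed the test was between the knockdowns. TIMM23 (ENSG00000265354; chromosome 10, 45972449 to 46003734, plus strand), the channel for presequence proteins, was at 88.4 CPM in both shCTR libraries, at 79.0 and 84.0 CPM in shMETTL3 and at 98.6 and 95.8 CPM in shMETTL14. It lay below shCTR in one knockdown and above it in the other, with no overlap. Neither change from shCTR was called (log2 fold change -0.12, adjusted p = 0.237, and 0.14, adjusted p = 0.235). The difference of -0.25 between the knockdowns (standard error 0.0650, adjusted p = 0.0125) was called in all 8 other settings, but was lost without either shMETTL3 library (0.189 and 0.0560) or either shMETTL14 library (0.150 and 0.0832). TIMM23B is a near-identical copy, and how reads were divided between the pair is not known. The sum of the pair was 115 and 112 CPM in shCTR, 99.4 and 102 CPM in shMETTL3 and 118 and 116 CPM in shMETTL14, so that on the sum as well shMETTL3 was the lowest and shMETTL14 the highest.

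None of the other TIM23 subunits was called. TIMM17A was at 146 and 164 CPM in shCTR, 179 and 167 CPM in shMETTL3 and 167 and 170 CPM in shMETTL14, with log2 fold changes of 0.16 (adjusted p = 0.116) and 0.12 (adjusted p = 0.330). The change in shMETTL3 passed the threshold with library size scaling (adjusted p = 0.0326), with the GC and length trend removed (0.00601) and without shCTR replicate 2 (0.0141). TIMM17B, the X-linked paralog of TIMM17A, had the widest gap between control libraries of the 32 genes, 91.3 against 116 CPM, and was between 103 and 109 CPM in the others. TIMM50, the receptor of TIM23 on the intermembrane side, ran from 142 to 156 CPM over the 6 libraries, and TIMM21, which couples TIM23 to TOM, from 31.2 to 37.8 CPM, with log2 fold changes between -0.045 and 0.15.

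Of the 6 PAM motor genes, 2 were called lower in shMETTL14 and 0 in shMETTL3. HSPA9 (ENSG00000113013; chromosome 5, 138553756 to 138575724, minus strand), also called mortalin, is the mitochondrial HSP70 that pulls precursors into the matrix. It was at 806 and 750 CPM in shCTR, 846 and 815 CPM in shMETTL3 and 680 and 636 CPM in shMETTL14. The shMETTL14 libraries were the lowest and the shMETTL3 libraries the highest, with no overlap among the 3 groups. The log2 fold change was -0.24 in shMETTL14 (standard error 0.0575, adjusted p = 0.0140), 0.094 in shMETTL3 (adjusted p = 0.285) and 0.34 between the knockdowns (standard error 0.0575, adjusted p = 0.00049). The last was called in every other fit, at log2 fold changes between 0.29 and 0.38, with an adjusted p of 0.0227 at most. The call in shMETTL14 was lost without shCTR replicate 1 (adjusted p = 0.0643) or shMETTL14 replicate 2 (0.180).

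GRPEL2 (ENSG00000164284; chromosome 5, 149345430 to 149354583, plus strand) and GRPEL1 are the exchange factors that release ADP from HSPA9. GRPEL2 was at 60.3 and 60.1 CPM in shCTR, 61.1 and 64.0 CPM in shMETTL3 and 49.0 and 53.2 CPM in shMETTL14. The shMETTL14 libraries lay below the other 4, whereas shMETTL3 lay just above shCTR. Its log2 fold change was -0.24 in shMETTL14 (standard error 0.0705, adjusted p = 0.0496), 0.056 in shMETTL3 (adjusted p = 0.635) and 0.29 between the knockdowns (standard error 0.0702, adjusted p = 0.00834). The change in shMETTL14 stayed under the threshold in only 3 of 8 other settings and, of the fits that leave out a library, only without shCTR replicate 2, the adjusted p reaching 0.458 without shMETTL14 replicate 1. The difference between the knockdowns was called in all 8 other settings and lost without shMETTL3 replicate 2 (0.128) or shMETTL14 replicate 1 (0.188). GRPEL1 was at 64.4 and 65.3 CPM in shCTR, 67.5 and 65.9 CPM in shMETTL3 and 57.0 and 60.3 CPM in shMETTL14, with log2 fold changes of 0.041 (adjusted p = 0.732), -0.15 (adjusted p = 0.227) and 0.19 between the knockdowns (adjusted p = 0.0811). In 6 fits that last difference passed, among them those without shCTR replicate 1 (0.0375) or replicate 2 (0.0369).

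The J-proteins and the anchor of the motor were not called. DNAJC19, the J-protein that stimulates HSPA9, was at 46.5 and 44.4 CPM in shCTR, 43.0 and 40.4 CPM in shMETTL3 and 37.9 and 39.8 CPM in shMETTL14, with log2 fold changes of -0.12 (adjusted p = 0.287) and -0.22 (adjusted p = 0.0848, and 0.0479 without shCTR replicate 2). TIMM44, which tethers HSPA9 to the TIM23 exit, ran from 135 to 154 CPM. PAM16, which holds back DNAJC19, had between 159 and 228 reads and was at 9.41 and 8.30 CPM in shCTR, 10.7 and 11.4 CPM in shMETTL3 and 10.3 and 9.28 CPM in shMETTL14. Its log2 fold change in shMETTL3 was 0.32 (standard error 0.132, adjusted p = 0.108), and it was the gene whose 95% interval, 0.04 to 0.59, reached past 1.5-fold. Same-strand exons of the readthrough gene CORO7-PAM16, which held 0 reads in the 6 libraries, cover 21.9% of its exonic bases. How reads on shared exons were counted is not stated, so this 0 does not show that PAM16 lost or gained no reads there.

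Added up, the 33 genes held 3550 and 3584 CPM in shCTR, 3540 and 3523 CPM in shMETTL3 and 3347 and 3327 CPM in shMETTL14. Their unscaled share of the reads was 0.349% and 0.351% in shCTR, 0.360% in both shMETTL3 libraries and 0.335% and 0.332% in shMETTL14. Against shCTR, shMETTL3 thus lay lower in scaled CPM and higher as a share of reads. HSPA9 and TOMM20 made up between 38.2% and 42.9% of the summed CPM. Without this pair, the sum was 2028 and 2131 CPM in shCTR, 2026 and 2043 CPM in shMETTL3 and 2062 and 2055 CPM in shMETTL14, with the knockdown libraries inside or at the edge of the control range. By role, the TOM receptors summed to 92.8% to 92.9% of the shCTR mean in shMETTL3 and to 86.5% to 90.2% in shMETTL14. TOMM20 made up 75.5% to 77.7% of that sum, and without it the order of the knockdowns turned, with 89.0% and 89.7% in shMETTL3 and 91.1% and 92.3% in shMETTL14. The small TOM subunits summed to 80.1% and 81.7% in shMETTL3 and to 96.3% and 102% in shMETTL14. The PAM motor showed the opposite order, at 106% and 103% in shMETTL3 and 88.8% and 84.4% in shMETTL14. HSPA9 made up 68.1% to 72.1% of its sum, and the other 5 genes were at 99.4% and 100% in shMETTL3 and at 91.8% and 90.4% in shMETTL14. The TIM22 genes reached 117% in both shMETTL3 libraries. For the pore, SAM, the small TIM chaperones and TIM23, all knockdown libraries stayed between 93.0% and 106% of the shCTR mean.

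**Figure D3:**
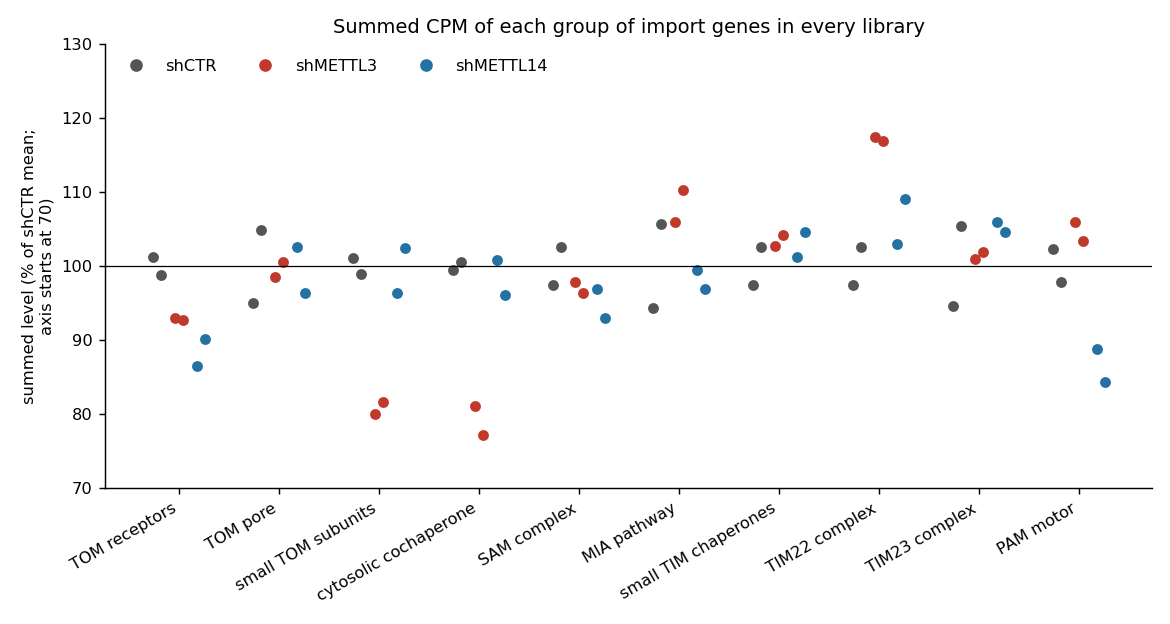
Summed CPM of each group of import genes in every library, as a percentage of the shCTR mean (vertical axis, which starts at 70), with 2 points for each condition. The small TOM subunits and the cytosolic cochaperone lie near 80% in shMETTL3, and the PAM motor lies at 88.8% and 84.4% in shMETTL14.

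Levels were compared between genes per kilobase of the longest annotated transcript and, as an alternative, of the longest coding sequence. TOMM7, at 200 CPM per kb of transcript over the 6 libraries, TOMM20, at 196, and HSPA9, at 160, were the most abundant, ahead of TIMM23 at 72.8 CPM per kb. TOMM5 (2.58 CPM per kb), TIMM22 (6.50) and TOMM40L (7.14) were the lowest of the tested genes. Per kilobase of coding sequence, TOMM20 led at 1530 CPM per kb, followed by TOMM7 at 415 and TIMM13 at 401. On that scale MTX1 was lowest at 18.9, below TOMM40L at 21.7 and TOMM5 at 27.0. Both the upper and the lower ranks thus depend on the length used. The level of TOMM5 may also lack reads from the exons it shares with other genes. The isoform that K562 uses was not determined.

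**Figure D4:**
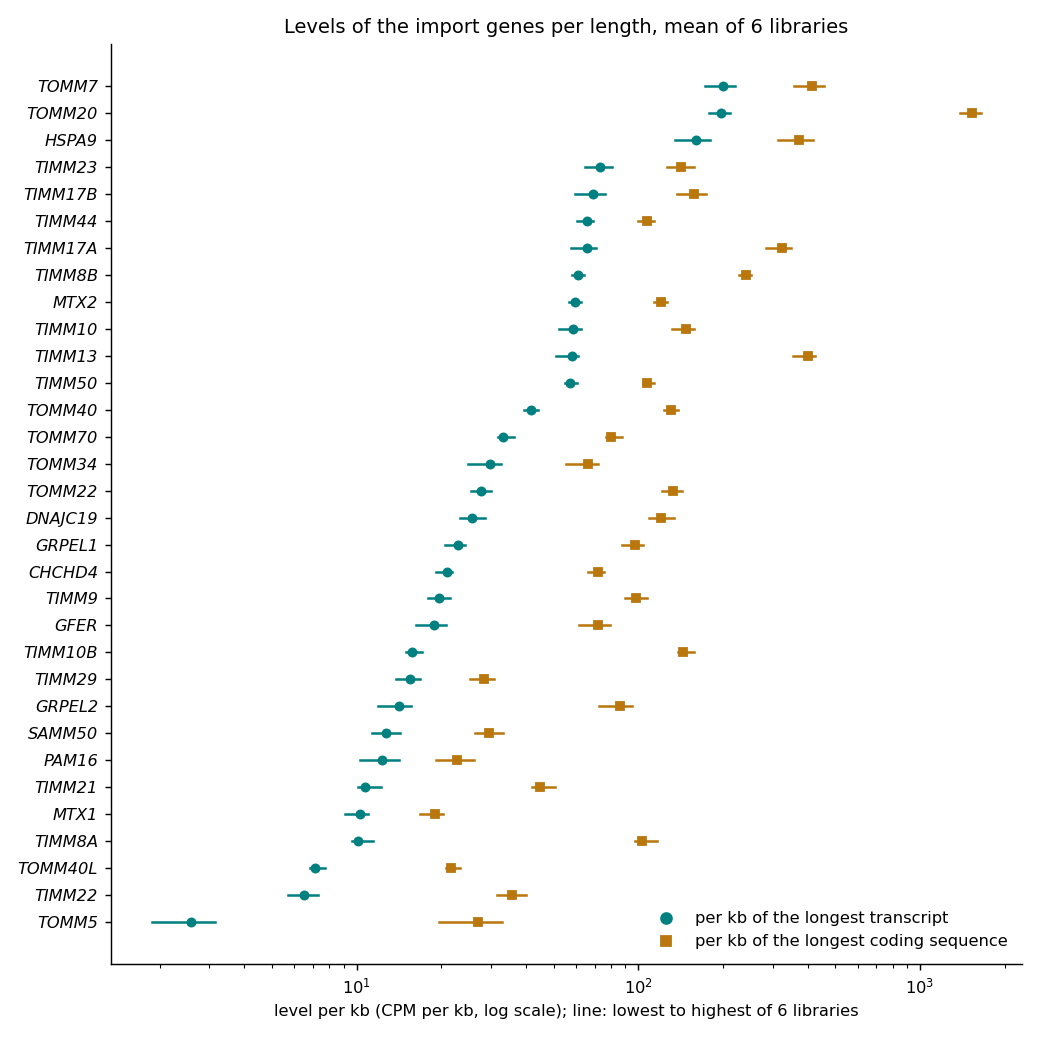
Level per kilobase (horizontal log axis) of the 32 tested import genes, per kb of the longest transcript (circles) and of the longest coding sequence (squares), as the mean of 6 libraries with a line from the lowest to the highest. TOMM7, TOMM20 and HSPA9 lead on the transcript scale, and the lines are short against the distances between most genes.

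Paralogs were compared by the ratio of their levels per coding length. TOMM40 exceeded TOMM40L by 5.46 to 6.32 times in the 6 libraries, TIMM17A exceeded TIMM17B by 1.83 to 2.27 times, and GRPEL1 and GRPEL2 were close, at ratios of 1.07 to 1.21. TIMM8B exceeded TIMM8A by 2.45 and 2.57 times in shCTR, 1.99 and 2.11 times in shMETTL3 and 2.43 and 2.54 times in shMETTL14, the 2 shMETTL3 libraries having the lowest ratios. The ratio of TIMM23 to TIMM23B was 3.02 and 3.38 in shCTR, 3.48 and 4.10 in shMETTL3 and 4.60 and 4.22 in shMETTL14. Of 40 annotated pseudogenes of the 33 genes, 9 exceeded 3 reads in at least 1 library and 6 in every library.

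Transcript composition moved with the calls in these libraries. Over all genes, those called lower in shMETTL3 had a median GC content of 43.3% and those called higher 54.2%, beside 48.2% for all genes tested with a value and 46.6% for the 32 import genes. Across the 32 genes, which share library depth and preparation, Pearson's r between GC content and log2 fold change was 0.38 in shMETTL3, 0.37 in shMETTL14 and 0.13 between the knockdowns. Between GC content and the difference of the 2 libraries of a group, r was 0.36 in shCTR, 0.24 in shMETTL3 and -0.24 in shMETTL14. The sign of these last values depends on how the replicates are numbered. Among the called genes, TOMM5 has a GC content of 41.0%, TOMM7 of 44.5%, TOMM22 of 46.9%, TOMM34 of 53.4%, TOMM20 of 41.4%, GRPEL2 of 39.0% and HSPA9 of 43.5%. With the trend removed, 2 import genes were higher and 3 lower in shMETTL3, 0 and 2 in shMETTL14, and 5 and 4 between the knockdowns. TOMM22 in shMETTL3 (log2 fold change -0.16 in place of -0.20, adjusted p = 0.0614) and GRPEL2 in shMETTL14 (-0.19 in place of -0.24, adjusted p = 0.0615) were the called genes lost, and TOMM5, TOMM7 and TOMM34 in shMETTL3 and TOMM20 and HSPA9 in shMETTL14 remained called.

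**Figure D5:**
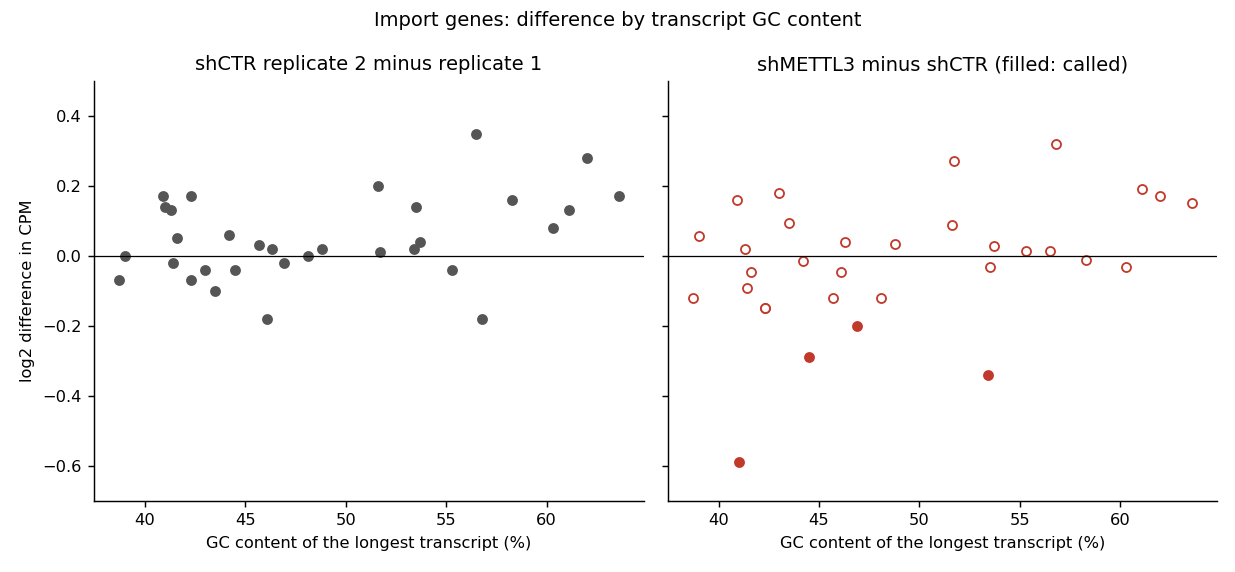
Log2 difference in CPM (vertical axis) against GC content of the longest transcript (horizontal axis, percent) for the 32 import genes, between the 2 shCTR libraries on the left and between shMETTL3 and shCTR on the right, where filled points are called genes. TIMM17B, at 0.35, is the highest point on the left, and TOMM5, at -0.59, is the lowest on the right.

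In the main fit, other genes of import and protein handling in mitochondria were called at shares below or near those of all genes. Among all genes, 16.5% were called in shMETTL3, 6.69% in shMETTL14 and 12.1% between the knockdowns. Of 43 listed genes for presequence processing, other translocases and insertases, chaperones, the MICOS complex of the cristae and proteases, 40 were tested, and 0 were called higher and 4 lower in shMETTL3, 0 higher and 2 lower in shMETTL14, and 1 higher and 1 lower between the knockdowns (10.0%, 5.0% and 5.0% of the 40). Their median log2 fold change was -0.112 in shMETTL3 and -0.046 in shMETTL14. In shMETTL3, 33 of the 40 had a negative log2 fold change and 7 a positive one. With the GC and length trend removed, 9 of them were called in shMETTL3, all lower. The share of all genes called in that fit is not given here. AIFM1, a flavoprotein that anchors CHCHD4 to the inner membrane, was called in both knockdowns, at 213 CPM in both shCTR libraries, 183 and 184 CPM in shMETTL3 (log2 fold change -0.21, standard error 0.0623, adjusted p = 0.0225) and 187 and 170 CPM in shMETTL14 (-0.26, standard error 0.0624, adjusted p = 0.0165). The first call was lost without either shMETTL3 library (0.138 and 0.164) and with library size alone (0.0874), and the second without shMETTL14 replicate 2 (0.269). Its level overlapped in no case with shCTR.

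In shMETTL3, TIMM23B fell by 0.36 on the log2 scale (standard error 0.0996, adjusted p = 0.0171), the matrix chaperone TRAP1 by 0.21 (0.0698, 0.0452) and the cytosolic HSP70 HSPA8, named here after its value was seen, by 0.20 (0.0530, 0.0146). Each was lost without shMETTL3 replicate 2, at adjusted p of 0.199, 0.340 and 0.206. TIMM23B was also lost without shCTR replicate 1 (0.114) and with DESeq2 (0.0551), and HSPA8 without shMETTL3 replicate 1 (0.0852) and with library size alone (0.0715). TRAP1 was lost besides without shCTR replicate 1 (0.119), without shMETTL3 replicate 1 (0.101), with library size alone (0.140) and with no filter (0.0796). APOO, a MICOS subunit, had the largest change of the 40 genes: it was at 22.8 and 24.7 CPM in shCTR, 22.3 and 23.1 CPM in shMETTL3 and 13.9 and 15.8 CPM in shMETTL14. On the log2 scale the change was -0.67 in shMETTL14 (standard error 0.103, adjusted p = 0.000295) and 0.61 between the knockdowns (standard error 0.103, adjusted p = 0.000407), and both were called in all other fits. PMPCA, the subunit of the presequence peptidase that binds the substrate, was lower in shMETTL3 than in shMETTL14 (log2 fold change -0.21, standard error 0.0618, adjusted p = 0.0343), a call lost without any one of the 4 knockdown libraries (adjusted p from 0.0851 to 0.333).

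Products of import serve as a side-by-side measure. Of 77 tested mitochondrial ribosomal proteins, 1 was higher and 14 lower in shMETTL3 (19.5%, beside 16.5% of all genes), 1 and 4 in shMETTL14 (6.49%, beside 6.69%), and 1 and 2 between the knockdowns (3.9%, beside 12.1%). Of 37 nuclear subunits of complex I, 0 were higher and 9 lower in shMETTL3 (24.3%), 0 and 1 in shMETTL14 (2.7%), and 1 and 7 between the knockdowns (21.6%), beside the same shares of all genes. The median log2 fold change in shMETTL3 was -0.051 for the ribosomal proteins and -0.124 for complex I, beside 0.001 for the import machinery. Without shMETTL3 replicate 1 the calls in shMETTL3 numbered 3 for the ribosomal proteins and 4 for complex I, and without replicate 2 they numbered 1 and 1. The complex I calls between the knockdowns numbered at most 1 without any one of the 4 knockdown libraries. A difference between these lists was not tested.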

How the data were processed

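Poly(A) RNA-seq libraries of K562 cells, 2 each of shCTR, shMETTL3 and shMETTL14, were analysed, grouped by the submitters' labels. The authors deposited whole-number counts of reads per gene, not normalized. Their processing notes name HTSeq 0.6.1 and build hg38; the aligner, annotation and strand setting are not given in the sources used here. Of 61661 identifiers, 60675 were Ensembl identifiers and 986 were not. Gene positions, lengths and GC content are from GENCODE 29. The 33 genes, their roles and the other lists were chosen with earlier results of these data known. Every listed import gene was named. Of the other genes, up to 3 called in each direction of a comparison, by size of change, were named, and HSPA8 besides.

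From the counts, CPM scaled by TMM and quasi-likelihood tests were computed with edgeR 4.0.16 in R 4.3.3, in 1 fit over the 6 libraries (filterByExpr with a minimum count of 10, 17686 genes), for 3 comparisons with Benjamini-Hochberg adjustment over all genes tested and a threshold of 0.05. Up to 3 reads were taken as the floor. Intervals are 95% intervals of the fit. Depth, from 19292574 to 20115304 reads, and the n of 2 limit precision. The alternatives were DESeq2 1.42.0, its size factors, library size alone, no filter, a fit of just the groups compared, a replicate block, a trend on GC content and length (mgcv 1.9.3), block and trend together, and each library left out. The steps were run on simulated data in which the changed genes differed by 1.5-fold or more. Most changes seen here were smaller, so the simulation does not measure how well those are found. Where a GC trend was simulated, only the fit with the trend removed was held to a pass mark, not the main fit.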

Additional observations from a re-analysis of the deposited data

Results flagged for a closer look

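The levels of 6 import genes differed between shMETTL3 and shMETTL14 by their direct comparison in edgeR. Each knockdown is 1 line, so a difference between the lines cannot be told apart from a difference between the effects of the knockdowns. These 6 were 18.8% of the 32 tested, beside 12.1% of all genes. Each value is a log2 fold change, positive where shMETTL3 is higher. It was 0.34 for HSPA9 and 0.29 for GRPEL2, both of the PAM motor, higher in 2 of 2 shMETTL3 libraries than in both shMETTL14 libraries. It was -0.57 for TOMM5, -0.32 for TOMM34, -0.28 for TOMM7 and -0.25 for TIMM23, each lower in 2 of 2. The libraries of these groups were separated in this way for 23 of the 32 genes and for 56.7% of all genes. With each library left out in turn, HSPA9 was called in 6 of 6 fits, GRPEL2 and TOMM34 in 4, TOMM5 and TOMM7 in 3 and TIMM23 in 2.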

How the results depend on the processing

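No import gene reversed its direction after being called, in any alternative. With 1 library left out in turn, the calls among import genes numbered 1 to 8 in shMETTL3, 0 to 6 in shMETTL14 and 1 to 7 between the knockdowns; among the other import-related genes 0 to 10, 1 to 6 and 1 to 6; among mitochondrial ribosomal proteins 1 to 13, 0 to 8 and 0 to 6; and among complex I subunits 1 to 10, 0 to 2 and 0 to 11. A group left with 1 library was assumed to vary like the others. The replicate numbers did not pair the libraries (correlations of deviations 0.0614, 0.00511 and -0.02 over 17686 genes). The replicate block alone gave 4, 3 and 6 import genes, as without it, and 7 and 6 related genes in shMETTL3 and shMETTL14, against 4 and 2. With the block and the GC and length trend removed together, import genes numbered 8 in shMETTL3 and 11 between the knockdowns, related genes 11, 10 and 10, ribosomal proteins 10 in shMETTL14 and 8 between the knockdowns, and complex I subunits 3 in shMETTL14. The trend removed alone gave 9, 7 and 6 related genes, 7 ribosomal proteins between the knockdowns and 2 complex I subunits in shMETTL14. Library size alone gave 3 import genes higher and 3 lower in shMETTL3, against 0 and 4, 1 import gene in shMETTL14, 2 and 1 related genes in shMETTL3 and between the knockdowns, 9 ribosomal proteins in shMETTL3 and 4 complex I subunits between the knockdowns. A fit of the compared groups only gave 1 import gene in shMETTL14, 6 related genes and 5 ribosomal proteins between the knockdowns, and 8 ribosomal proteins in shMETTL3. DESeq2 gave 8, 3 and 0 ribosomal proteins and 5 complex I subunits between the knockdowns. No filter gave 3 and 0 ribosomal proteins in shMETTL14 and between the knockdowns, and 1 related gene and 3 complex I subunits between the knockdowns. The causes were not tested. With 2 libraries a group, changes of the size seen here, mostly under 1.5-fold, sit near the threshold.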
